A study of Mus musculus with 9 samples.

Results

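The 9 genes described here encode proteins that carry retinoids inside cells and the nuclear receptors that read them. They were matched by symbol to the Entrez gene identifiers of the deposited tables, and all 9 were listed among the 19369 genes found in at least 1 sample. *Crabp1* and *Crabp2* encode cytoplasmic retinoic acid (RA)-binding proteins, *Rbp2* encodes a cytoplasmic retinol-binding protein, and *Fabp5* encodes a fatty acid-binding protein that also takes RA. *Rara*, *Rarb* and *Rarg* encode the RA receptors (RARs), and *Rxra* and *Rxrb* encode retinoid X receptors (RXRs). The third RXR gene, *Rxrg*, is not among the 9 and was followed only for the sums.

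RNA-Seq was performed on wild-type C57BL/6 mouse embryos with no transgene or treatment. The periocular neural crest (pNC) was collected at embryonic stage E10.5, after dispase treatment and removal of the ectoderm, lens vesicle and optic cup, and corneas were collected at E14.5 and E16.5. Each stage had 3 samples, labeled as biological replicates, and each sample was a pool of tissue from several embryos. The comparisons between stages ask which parts of the RA pathway are present as migrating crest cells become the cornea. The stages differ in tissue as well as in age, and in bulk tissue fewer cells of a type and less RNA per cell cannot be told apart.

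RA is made from vitamin A in nearby tissues and enters the cell, where it meets its binding proteins. CRABP2 hands RA to the RARs in the nucleus, FABP5 is known to deliver it to PPARD instead, and CRABP1 is associated with its retention in the cytoplasm and its breakdown by CYP26 enzymes. RARs bind DNA as heterodimers with RXRs, which also pair with several other nuclear receptors. In the developing eye, RA from the optic cup, lens and ectoderm is known to act on the periocular neural crest, and loss of RARs there disturbs the anterior segment.

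Totals of estimated counts ran from 8745161 to 9069023 per sample, so counting error is small for all of the 9 genes except *Rbp2*. Replicate 1 of E14.5 stood apart from the other E14.5 samples. Its chi-square per degree of freedom against them was 26.2 and 26.3, whereas the other pairs within stages gave 2.93 to 10.3. The summed FPKM of 10 corneal epithelium markers, none of which was at 0 at any stage, was 41.1 to 55.5 at E10.5, 2375 in replicate 1 of E14.5, 766 and 892 in the others of that stage, and 5620 to 8106 at E16.5. The labeled tissues carried their defining markers. All 8 periocular crest markers were listed at E10.5, where their sum was 364 to 388, and the sum of 7 corneal stroma markers was 178 to 286 in the pNC and 11265 to 14264 in the E16.5 corneas. Markers of other tissues were also present at E10.5, and those of red blood cells had the largest sum. The sum of 9 red blood cell markers was 4067 to 6231 at E10.5 and 1229.5 to 4392 in the corneas. For 6 vascular endothelium markers it was 108.6 to 173.3 at E10.5 and 22.8 to 88.4 in the corneas. For 7 markers of retina and pigment epithelium it was 47.7 to 62.85 at E10.5 and 26.8 to 103.4 in the corneas. The sum of 7 markers of neurons and glia was 129 to 202 at E10.5 and 6.46 to 8.64 in the corneas, and that of 6 skeletal muscle markers was 18.2 to 21.5 at E10.5 and 0.370 to 0.790 in the corneas. *Krt13* and *Ivl*, of the 8 suprabasal epithelium markers, were at 0 at E10.5.

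Promoter sequence is shown for the 3 members with the largest fold changes, *Rarb*, *Rbp2* and *Crabp1*, because RARs and RXRs act on genes through short DNA repeats, and *Rarb* itself is a textbook example. Each sequence is the 250 bases before a RefSeq transcript start in GRCm38.p6, written in the direction of transcription. Capitals mark matches to the motifs searched, which were AGGTCA, the pair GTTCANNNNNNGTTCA, and the direct repeats DR1, DR2 and DR5 at which RXR heterodimers bind, all on either strand. The *Rarb* sequence, chr14:16575477-16575726 on the minus strand, precedes a transcript start that lies inside the annotated gene, which spans chr14:16430839-17082331.
Rarb: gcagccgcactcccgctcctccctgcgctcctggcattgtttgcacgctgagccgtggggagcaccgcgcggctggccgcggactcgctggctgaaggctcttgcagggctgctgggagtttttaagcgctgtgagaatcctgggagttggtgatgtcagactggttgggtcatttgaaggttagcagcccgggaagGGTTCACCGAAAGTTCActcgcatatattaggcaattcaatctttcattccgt
The *Rbp2* sequence, chr9:98490287-98490536 on the plus strand, directly precedes the annotated gene at chr9:98490537-98509771.
Rbp2: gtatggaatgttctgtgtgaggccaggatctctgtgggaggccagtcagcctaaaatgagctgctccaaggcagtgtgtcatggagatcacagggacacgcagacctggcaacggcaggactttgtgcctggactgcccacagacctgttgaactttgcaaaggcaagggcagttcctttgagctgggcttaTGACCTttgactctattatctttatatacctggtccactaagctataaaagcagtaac
The *Crabp1* sequence, chr9:54764498-54764747 on the plus strand, directly precedes the annotated gene at chr9:54764748-54773110.
Crabp1: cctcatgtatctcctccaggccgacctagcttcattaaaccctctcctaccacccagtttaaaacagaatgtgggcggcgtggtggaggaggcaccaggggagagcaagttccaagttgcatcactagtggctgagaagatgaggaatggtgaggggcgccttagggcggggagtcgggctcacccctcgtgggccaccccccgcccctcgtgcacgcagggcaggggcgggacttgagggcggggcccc

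*Rarb* held a DR5 with the letters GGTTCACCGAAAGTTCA from 53 to 37 bases before the transcript start, at chr14:16575513-16575529. This match includes the GTTCA pair. A DR5 was present in 32 of the 32851 windows of the same kind (0.0974%), each 250 bases before to 50 bases after a RefSeq start, and the GTTCA pair in 25 (0.0761%). *Rbp2* held a TGACCT, the reverse complement of AGGTCA, from 58 to 53 bases before its start, and 16.3% of all windows held AGGTCA in either direction. AGGTCA was also found in 1 window each of *Rxra*, *Rara* and *Rarg*. None of the motifs was found in the *Crabp1* window or in the windows of *Rxrb*, and neither DR1, present in 0.222% of windows, nor DR2, present in 0.268%, was found in any window searched. No window of *Crabp2* or *Fabp5* was analysed here. These are matches of letters only, and no binding was measured.

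Apart from *Rbp2*, the binding proteins were on average the most abundant of the 9 transcripts at every stage, and these 3, *Crabp1*, *Crabp2* and *Fabp5*, fell between the pNC and the E14.5 cornea. *Crabp1* and *Fabp5* were higher again at E16.5, whereas *Crabp2* did not pass the test between the corneal stages. *Rbp2* was scarce until E16.5. Values are FPKM (fragments per kilobase of transcript, scaled to the mapped fragments of the sample) unless a count is named, and log2 fold changes come from edgeR's quasi-likelihood test on counts with Benjamini-Hochberg adjustment over 14771 genes. A gene was called changed when its adjusted p was under 0.05 and it changed at least 2-fold.

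*Crabp1*, the more abundant of the CRABP transcripts on average at each stage, measured 472, 409.5 and 639.6 FPKM in replicates 1, 2 and 3 of E10.5. At E14.5 it measured 260.5, 79.1 and 95.7 FPKM, and at E16.5 it measured 320.5, 323 and 329.9 FPKM. Every E14.5 sample lay below every sample of the other stages, and replicate 1 of E14.5, the sample with the most epithelial and stromal marker RNA of its stage and the least crest and vascular marker RNA, was closer to E16.5 than to its own replicates. Stage means were 507 ± 119, 145 ± 100.3 and 324 ± 4.89 (SD, n = 3 each). *Crabp1* fell by 1.83 on the log2 scale between E10.5 and E14.5 (SE 0.37, adjusted p = 0.00168) and rose by 1.33 between E14.5 and E16.5 (SE 0.36, adjusted p = 0.0172). Without replicate 1 of E14.5 these log2 fold changes were -2.54 and 2.04, and without replicate 3 of E14.5 the rise was no longer called (1.11, adjusted p = 0.0639). The E16.5 samples all lay below the E10.5 samples, but the log2 fold change of -0.50 (SE 0.36) did not pass the test in the fit to all 9 samples (adjusted p = 0.234). A fit to these 6 samples alone leaves out the spread within E14.5. There the log2 fold change was -0.49 with an edgeR adjusted p of 0.00614, still under 2-fold.

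*Crabp2*, the carrier that passes RA to the RARs, measured 236, 239 and 295 FPKM at E10.5. Its values were 116, 95.6 and 88.8 FPKM at E14.5, and 86.0, 91.8 and 91.9 FPKM at E16.5. All 6 corneal samples lay below all 3 pNC samples, and the corneal stages overlapped. Stage means were 257 ± 33.4, 100.1 ± 14.2 and 89.9 ± 3.35. *Crabp2* fell by 1.37 on the log2 scale from E10.5 to E14.5 (SE 0.12, adjusted p = 5.67e-06) and by 1.37 from E10.5 to E16.5 (SE 0.12, adjusted p = 2.31e-06). Between the corneal stages the log2 fold change was 0.01 (SE 0.12, adjusted p = 0.965), and it was -0.16 when library totals alone were used for scaling.

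*Fabp5*, whose product can route RA to PPARD, measured 163, 166 and 189.9 FPKM at E10.5. It measured 86.2, 89.8 and 72.1 FPKM at E14.5, and 214, 159 and 138 FPKM at E16.5. The E14.5 samples formed a trough below every other sample, and the E16.5 samples spread across the E10.5 range, the highest being replicate 1. Stage means were 173 ± 14.8, 82.7 ± 9.37 and 170.3 ± 38.9. *Fabp5* fell by 1.08 on the log2 scale from E10.5 to E14.5 (SE 0.15, adjusted p = 0.000139) and rose by 1.21 from E14.5 to E16.5 (SE 0.15, adjusted p = 0.000568). Between E10.5 and E16.5 the log2 fold change was 0.13 (SE 0.14, adjusted p = 0.454), and its sign turned to -0.02 when library totals alone were used.

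*Rbp2*, a retinol carrier best known from the intestine, was listed with 6, 4 and 6 counts at E10.5, which is 1.03, 0.680 and 1.05 FPKM. At E14.5 it had 1 count in replicate 1 (0.180 FPKM) and was not listed in the others, and at E16.5 it had 42, 25 and 21 counts (7.44, 4.38 and 3.66 FPKM). The stages did not overlap in any pair. Stage means were 0.920 ± 0.208, 0.0600 ± 0.104 and 5.16 ± 2.01 FPKM, and the gene passed the filter on low counts only through E16.5, the stage where it is high. Its p-values are therefore taken from a fit of all genes with no such filter. There the log2 fold change from E10.5 to E16.5 was 2.60 (edgeR adjusted p = 0.000317). From summed counts the ratio of E16.5 to E10.5 was 5.58, with an exact 95% interval of 3.25 to 10.2. Against the 1 count of E14.5, the ratio at E16.5 was 88.1 (15.4 to 3520) and that at E10.5 was 15.8 (2.45 to 662). These intervals cover counting error only. In the unfiltered fit both comparisons with E14.5 passed the test (adjusted p = 0.00681 from E10.5 to E14.5 and 0.000172 from E14.5 to E16.5). The fall from E10.5 to E14.5 was not called by the NOISeq criterion or by limma on log2(FPKM + 1), where it was -0.86, and in a fit to these 6 samples alone *Rbp2* did not pass the filter and was not tested.

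**Figure D1:**
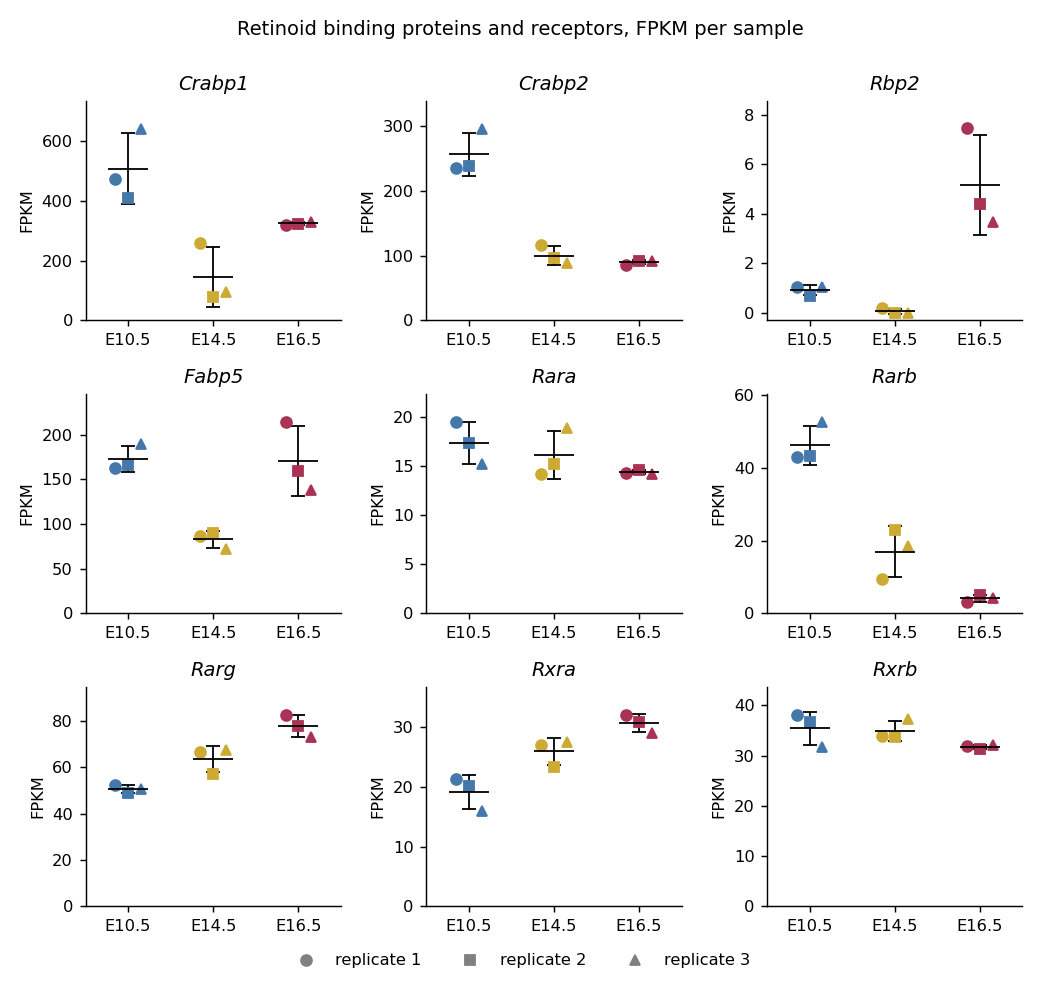
FPKM of each of the 9 genes in every sample (vertical axes, linear, separate for each gene) by stage, with replicates as symbols, horizontal bars for stage means and error bars for 1 SD over 3 samples. *Crabp1* and *Fabp5* are lowest at E14.5, *Crabp2* and *Rarb* are highest at E10.5, *Rbp2* is highest at E16.5, and *Rara* and *Rxrb* stay within narrow ranges.

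The binding proteins changed not only in level but relative to each other. The 2 CRABP transcripts summed to 764 ± 151 FPKM in the pNC, 245 ± 114 in the E14.5 cornea and 414 ± 7.67 in the E16.5 cornea. *Crabp1* made up 66.1% ± 2.69, 55.4% ± 12.3 and 78.3% ± 0.486 of these sums. The ratio of *Crabp1* to *Crabp2* was 1.71 to 2.17 in the pNC and 3.52 to 3.72 at E16.5. At E14.5 it was 2.25 in replicate 1, and 0.828 and 1.08 in replicates 2 and 3, so that *Crabp2* exceeded *Crabp1* in replicate 2. This order depends on length scaling, since from counts alone *Crabp1* made up 64.7%, 40.3% and 46.8% of the CRABP sum in these replicates and was below *Crabp2* in both replicates 2 and 3. The ratio of *Crabp2* to *Fabp5*, the carriers for RARs and for PPARD, was 1.44 to 1.55 in the pNC, 1.07 to 1.34 in E14.5 corneas and 0.403 to 0.665 in E16.5 corneas. In FPKM, *Crabp2* thus exceeded *Fabp5* in all 6 samples of E10.5 and E14.5. It was below *Fabp5* in all 3 samples of E16.5, and the ratio did not overlap between any of the stages. From counts alone *Crabp2* was below *Fabp5* in replicate 2 of E14.5 (739 against 749), so the order in that sample depends on length scaling. The ratios are given as values and were not tested.

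**Figure D2:**
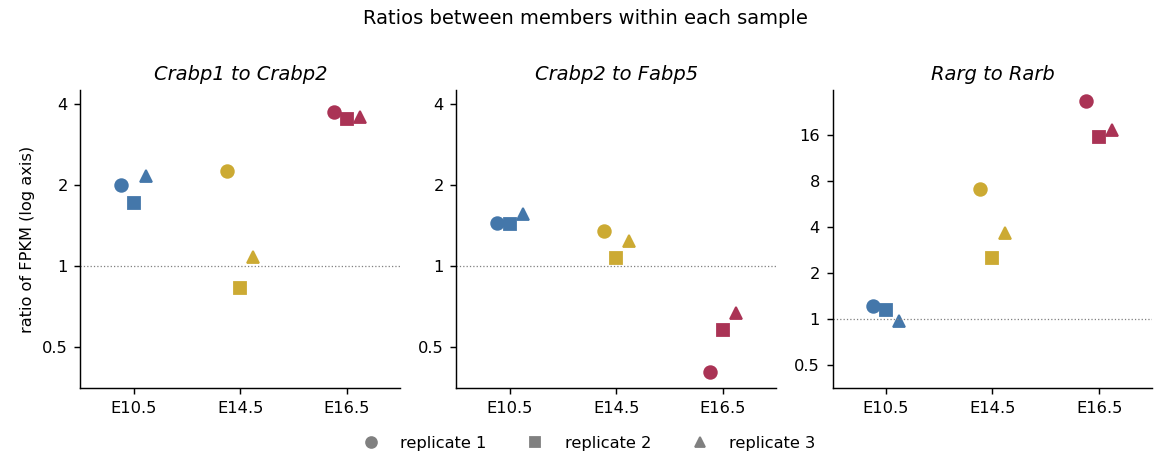
Ratios of FPKM within each sample (log axes) for *Crabp1* to *Crabp2*, *Crabp2* to *Fabp5* and *Rarg* to *Rarb*, by stage and replicate, with a dotted line at a ratio of 1. *Crabp2* to *Fabp5* falls below 1 in the 3 samples of E16.5, and *Rarg* to *Rarb* runs from 0.963 to 1.21 at E10.5 to 15.5 to 26.5 at E16.5.

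Among the receptors, *Rarb* fell at each step, *Rarg* and *Rxra* rose by less than 2-fold, with 1 step of each lost when the samples or scaling were changed, and *Rara* and *Rxrb* did not pass the test in any comparison.

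*Rarb*, an RA receptor whose gene is itself induced by RA in many tissues, measured 43.0, 43.2 and 52.6 FPKM at E10.5. It measured 9.37, 22.9 and 18.7 FPKM at E14.5, and 3.11, 5.02 and 4.23 FPKM at E16.5. The 3 stages did not overlap, and replicate 1 was the lowest of the E14.5 samples. Stage means were 46.2 ± 5.48, 17.0 ± 6.94 and 4.12 ± 0.960. *Rarb* fell by 1.46 on the log2 scale from E10.5 to E14.5 (SE 0.26, adjusted p = 0.000860), by 1.88 from E14.5 to E16.5 (SE 0.30, adjusted p = 0.00137), and by 3.34 from E10.5 to E16.5 (SE 0.30, adjusted p = 3.01e-06), which is 10.1-fold. Without replicate 1 of E14.5 the log2 fold changes to and from that stage were -1.16 and -2.18, and both were still called.

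*Rarg*, the most abundant RAR transcript on average at every stage, measured 52.1, 48.9 and 50.6 FPKM at E10.5. It measured 66.3, 57.0 and 67.4 FPKM at E14.5, and 82.3, 77.6 and 73.1 FPKM at E16.5. Each stage lay wholly above the preceding stage, with means of 50.6 ± 1.61, 63.5 ± 5.73 and 77.7 ± 4.61. The log2 fold change was 0.32 from E10.5 to E14.5 (SE 0.10, adjusted p = 0.0140), 0.45 from E14.5 to E16.5 (SE 0.10, adjusted p = 0.00507), and 0.77 from E10.5 to E16.5 (SE 0.10, adjusted p = 3.10e-05). All 3 passed at an adjusted p under 0.05 and none reached 2-fold. The first step did not pass without replicate 2 of E10.5 (adjusted p = 0.0562) or replicate 3 of E14.5 (adjusted p = 0.0504).

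*Rara*, the RAR expressed most widely in the embryo, measured 19.4, 17.4 and 15.2 FPKM at E10.5. It measured 14.2, 15.2 and 18.9 FPKM at E14.5, and 14.3, 14.6 and 14.2 FPKM at E16.5. The E14.5 samples overlapped with both other stages, and the E16.5 samples lay just below those of E10.5. Stage means were 17.4 ± 2.12, 16.1 ± 2.43 and 14.4 ± 0.233, and log2 fold changes were -0.12, -0.13 and -0.01 with adjusted p of 0.462, 0.400 and 0.962 for E14.5 against E10.5, E16.5 against E10.5 and E16.5 against E14.5.

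*Rxra*, the RXR known to be needed for eye development in the mouse, measured 21.4, 20.2 and 15.9 FPKM at E10.5. It measured 27.0, 23.3 and 27.4 FPKM at E14.5, and 31.9, 30.9 and 29.0 FPKM at E16.5. The 3 stages did not overlap, and their means were 19.2 ± 2.86, 25.9 ± 2.26 and 30.6 ± 1.46. The log2 fold change was 0.42 from E10.5 to E14.5 (SE 0.12, adjusted p = 0.00978), 0.40 from E14.5 to E16.5 (SE 0.12, adjusted p = 0.0209), and 0.82 from E10.5 to E16.5 (SE 0.12, adjusted p = 8.23e-05). The 3 changes passed at an adjusted p under 0.05 in this fit and stayed under 2-fold. The step from E14.5 to E16.5 did not pass with library totals alone (0.24, adjusted p = 0.108) or with limma (adjusted p of 0.114 and 0.118), nor when replicate 2 of E14.5 or replicate 1 or 2 of E16.5 was left out (adjusted p of 0.0856, 0.0668 and 0.0654).

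*Rxrb*, another RXR of broad expression, measured 38.0, 36.7 and 31.7 FPKM at E10.5. It measured 34.0, 33.7 and 37.3 FPKM at E14.5, and 31.8, 31.3 and 32.1 FPKM at E16.5. The log2 fold changes were -0.02, -0.02 and 0.00 with adjusted p of 0.836, 0.860 and 0.975 for the same comparisons. The E16.5 values lay below the E14.5 values in FPKM, where the log2 fold change was -0.16 with library totals alone.

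**Figure D3:**
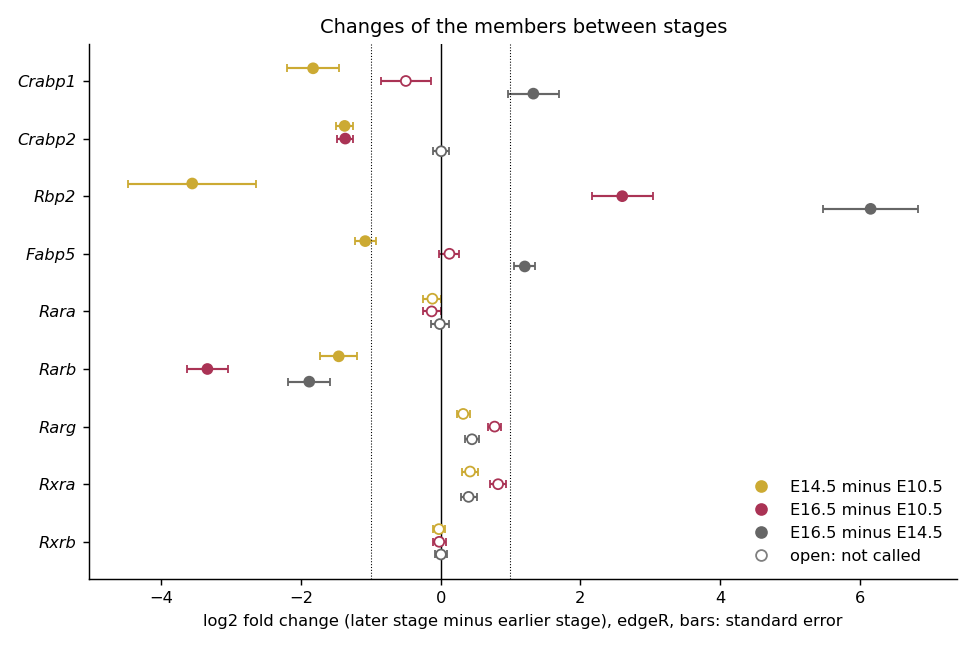
Log2 fold changes from edgeR (horizontal axis, later stage minus earlier stage) of the 9 genes in the 3 comparisons, with standard errors as bars, filled points for changes past both criteria and dotted lines at 2-fold. *Rbp2* and *Rarb* have the largest changes, from -3.56 to 6.16 and from -3.34 to -1.46, and *Rara* and *Rxrb* lie between -0.13 and 0.00. The *Rbp2* values against E14.5 rest on 1 count at that stage and depend on the prior count of the fit. All points come from the fit with the filter on low counts, which *Rbp2* passed only through E16.5. Its filled points are therefore not used as calls, and its p-values in the text come from the fit with no such filter.

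The makeup of the RAR transcripts shifted from near-equal shares of *Rarb* and *Rarg* to mostly *Rarg*. The 3 RAR genes summed to 114 ± 4.44 FPKM in the pNC, 96.7 ± 7.58 in E14.5 corneas and 96.2 ± 4.22 in E16.5 corneas. *Rarb* made up 37.5%, 39.5% and 44.4% of this sum in the E10.5 samples, 10.4%, 24.1% and 17.8% in the E14.5 samples, and 3.12%, 5.16% and 4.62% in the E16.5 samples. *Rarg* went from 42.7% to 45.5% at E10.5 to 59.9% to 73.7% at E14.5 and 79.8% to 82.5% at E16.5, whereas *Rara* was between 12.9% and 18.0% in every sample. The ratio of *Rarg* to *Rarb* averaged 1.10 in the pNC, 4.39 at E14.5 and 19.7 at E16.5. Within E14.5 it was 7.08 in replicate 1, and 2.48 and 3.61 in replicates 2 and 3.

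The RXR genes, with *Rxrg* included, summed to 56.3 ± 5.97, 61.5 ± 3.72 and 63.0 ± 1.61 FPKM. *Rxra* made up 33.9% ± 1.55 of the sum in the pNC, 42.1% ± 1.81 at E14.5 and 48.6% ± 1.29 by E16.5, and *Rxrb* made up 63.0% ± 0.832, 56.9% ± 1.53 and 50.4% ± 1.50. *Rxrg* was at most 3.84% in any sample. The order of *Rxra* and *Rxrb* depends on length scaling, because *Rxra* has the longer transcript (5267 bases against at most 2597), and from counts alone *Rxra* made up 51.8%, 60.1% and 66.4%.

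**Figure D4:**
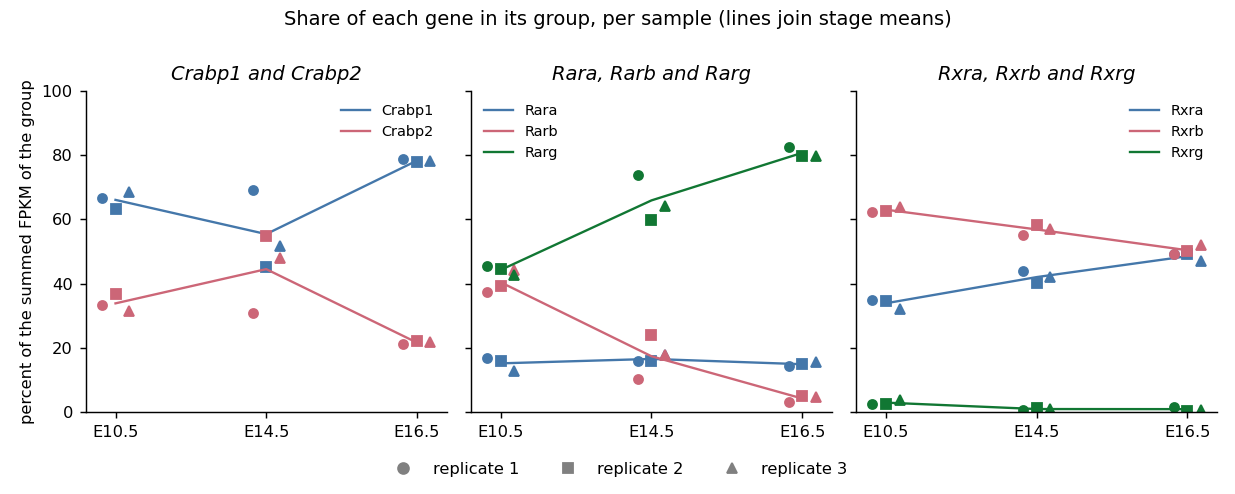
Share of each gene in the summed FPKM of its group (vertical axis, percent) for the CRABP, RAR and RXR genes in every sample, with lines joining stage means. The *Rarg* share climbs from 44.3% to 80.7% and the *Rarb* share drops from 40.5% to 4.30% on average, while the *Rxra* and *Rxrb* shares come together at 48.6% and 50.4% by E16.5.

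At E10.5 the order of mean FPKM was *Crabp1*, *Crabp2*, *Fabp5*, *Rarg*, *Rarb*, *Rxrb*, *Rxra*, *Rara* and *Rbp2*. Neighbors were separate in all samples except *Rarg* and *Rarb*, and *Rxra* and *Rara*, whose samples overlapped. At E14.5 the samples of *Crabp1*, *Crabp2* and *Fabp5* overlapped as neighbors at the top, and *Rarb* came seventh, overlapping with *Rara*. At E16.5 *Fabp5* stood above *Crabp2* with no overlap, *Rxrb* and *Rxra* overlapped, and *Rbp2* and *Rarb* shared the bottom of the order with overlapping samples, at 3.66 to 7.44 and 3.11 to 5.02 FPKM.

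All 9 genes passed the filter on low counts, *Rbp2* only through E16.5, so the counts here are over the other 8. From E10.5 to E14.5, 4 of the 8 were called lower and none higher (*Crabp1*, *Crabp2*, *Fabp5* and *Rarb*), where 21.6% of all genes tested were called, 13.6% being higher and 7.97% lower. From E10.5 to E16.5, 2 were called, both lower (*Crabp2* and *Rarb*), against 34.8% of all genes, 19.4% being higher and 15.4% lower. From E14.5 to E16.5, 3 were called (*Crabp1* and *Fabp5* higher, *Rarb* lower) against 11.7% of all genes, 6.26% being higher and 5.47% lower. Of all calls between E14.5 and E16.5, 53.3% were higher at E16.5, and with library totals alone 39.9% were, since that scaling moved the median log2 fold change of all genes from -0.02 to -0.19; the calls of the 8 were 2 higher and 1 lower with either scaling. Without a fold minimum, *Rarg* and *Rxra* joined in each comparison, which gave 6, 4 and 5 of the 8 against 56.4%, 69.8% and 35.0% of all genes. The stages did not overlap in FPKM for 6 of the 8 in each comparison, against 61.0%, 77.2% and 53.2% of all genes. The median log2 fold change of the 8 was -0.60, -0.07 and 0.20, and that of all genes was 0.01, 0.00062 and -0.02.

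Epithelial marker RNA, and that of other tissues, moved with several of these genes. Across the 9 samples the epithelial marker sum was lowest at E10.5, intermediate at E14.5 and highest at E16.5, and within E14.5 and within E16.5 it was highest in replicate 1. Within E14.5, replicate 1 had the highest *Crabp1*, the lowest *Rarb* and the only *Rbp2* count, whereas its *Fabp5* lay between those of the other replicates (86.2 against 89.8 and 72.1 FPKM). The same replicate had the highest sum of stroma markers of its stage (6686 against 2742 and 4227 FPKM) and of 9 red blood cell markers (4392 against 2453 and 2994), and the lowest sums of the 8 crest markers (309.9 against 461 and 496) and of 6 vascular endothelium markers (47.2 against 80.5 and 88.4). Within E16.5, replicate 1, with an epithelial sum of 8106 against 5620 and 5681, had the highest *Rbp2* (7.44 FPKM) and *Fabp5* (214 FPKM) and the lowest *Rarb* (3.11 FPKM), whereas *Crabp1* there was the lowest of its stage (320.5 FPKM). Its stroma (11265), crest (229.9) and vascular (22.8) sums were the lowest of E16.5. All 10 epithelial markers were called higher at E14.5 and at E16.5 than at E10.5. Between the corneal stages 7 of 10 were called higher at E16.5. The shares of all genes called higher in these 3 comparisons were 13.6%, 19.4% and 6.26%, and some of the markers were near 0 at E10.5. The sum of the 8 suprabasal markers was 6.12 to 7.23 at E10.5, 44.1 in replicate 1 of E14.5 and 13.4 and 15.8 in the others, and 69.4 to 103 at E16.5. The part of epithelial, stromal, crest, vascular or blood content in these values was not tested. The markers of neurons, muscle and vessels moved in the direction of *Crabp2* and *Rarb* from E10.5 to E14.5. Of the tested genes, 5 of 6 neuron and glia markers, 6 of 6 muscle markers and 5 of 6 vascular endothelium markers were called lower. The share of all genes called lower was 7.97%. From E14.5 to E16.5, *Rarb* was called lower and *Crabp2* was not called. No neuron, glia or muscle marker was called in that step, and 5 of 6 vascular endothelium markers were called lower, against 5.47% of all genes. Within E14.5, replicate 1 had the lowest vascular sum but the highest *Crabp2* (116 against 95.6 and 88.8 FPKM). Of the muscle markers 2 were at 0 in the corneas, so they passed the filter on low counts only through E10.5. Several other neuron and muscle markers were near 0 in the corneas, and calls of such markers add nothing to their levels. The part of these tissues in those falls was not tested either.

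**Figure D5:**
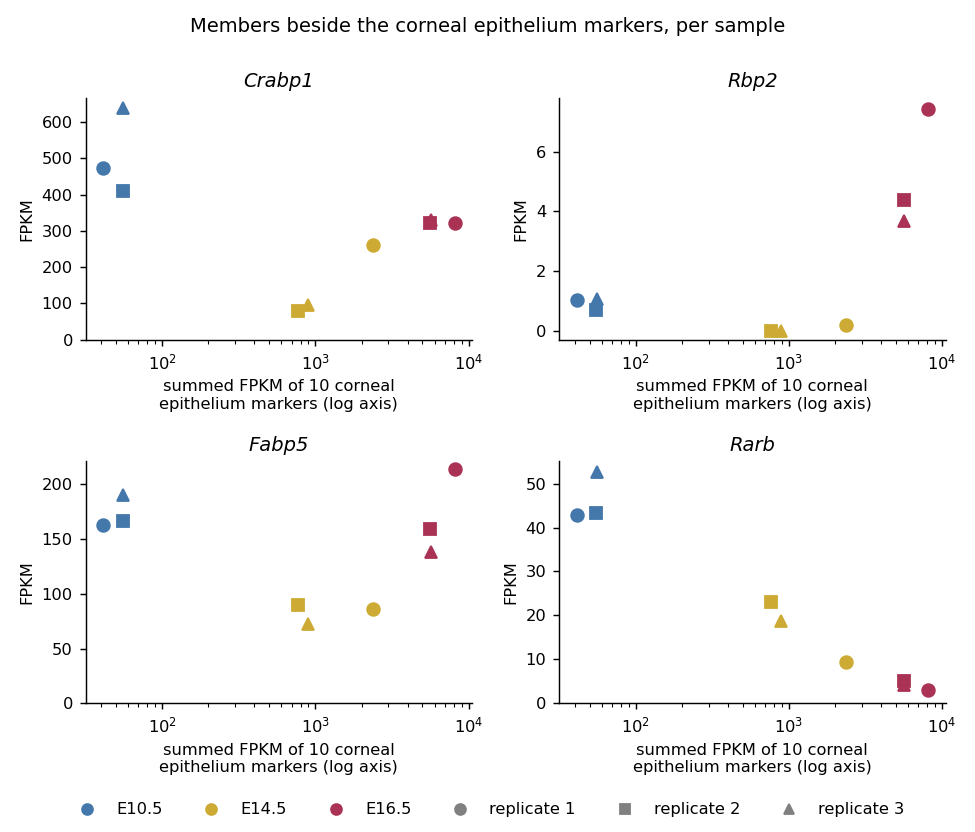
FPKM of *Crabp1*, *Rbp2*, *Fabp5* and *Rarb* (vertical axes, linear) against the summed FPKM of 10 corneal epithelium markers (horizontal axes, log) in each of the 9 samples. Replicate 1 of E14.5, at a marker sum of 2375, has the highest *Crabp1* and the lowest *Rarb* of its stage, and *Rarb* is at or below 5.02 FPKM where the sum is 5620 or more.

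Of 12 other genes for intracellular lipid-binding proteins 3 were tested, and 2 of them, *Fabp3* and *Fabp7*, were called lower at E14.5 and at E16.5 than at E10.5. Of all genes tested, 7.97% and 15.4% were called lower in these comparisons. *Fabp7*, the fatty acid-binding protein of neural and glial cells, went from 33.9 ± 3.69 FPKM at E10.5 to 1.95 ± 0.466 at E16.5 (log2 fold change -3.96, adjusted p = 2.91e-07).

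Genes that take up, make and degrade RA moved in both directions. Of 20 genes, 14 were tested, and 4 were called higher and none lower from E10.5 to E14.5, 5 higher and 4 lower from E10.5 to E16.5, and 2 higher and 4 lower from E14.5 to E16.5. Of all genes tested, 13.6%, 19.4% and 6.26% were called higher and 7.97%, 15.4% and 5.47% lower in these comparisons. The alcohol dehydrogenase gene *Adh1* was at 0 at E10.5 and at 6.17 ± 7.03 and 68.9 ± 13.2 FPKM in the corneas, and *Adh7* was at 0, 2.65 ± 2.85 and 7.89 ± 1.35. Both passed the filter on low counts only through the corneas, and both are among the genes counted as higher in each comparison. *Cyp26a1*, which encodes an RA-degrading enzyme, rose by 1.78 on the log2 scale from E10.5 to E14.5 (adjusted p = 3.15e-05). The RA synthesis gene *Aldh1a2* was 2.26 log2 units lower at E16.5 than at E10.5 (log2 fold change -2.26, adjusted p = 0.000482). *Aldh1a1*, another RA synthesis gene, had a log2 fold change of -2.69 from E14.5 to E16.5 (adjusted p = 0.0181), and *Stra6*, the receptor for the retinol carrier of plasma, had one of -1.66 (adjusted p = 0.00538).

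Of 14 genes for RXR partners and *Rxrg*, 10 were tested, with 1 called higher and 2 lower from E10.5 to E14.5, 3 higher and 2 lower from E10.5 to E16.5, and 1 higher from E14.5 to E16.5. *Thra*, a thyroid hormone receptor, went from 17.0 ± 2.43 to 34.0 ± 6.80 and 54.9 ± 2.62 FPKM, and was called from E10.5 to E16.5 (log2 fold change 1.84, adjusted p = 1.65e-06). *Ppard*, the partner to which FABP5 delivers RA, measured 7.89 ± 1.11, 11.2 ± 1.12 and 13.1 ± 0.663 FPKM and did not reach 2-fold in any comparison. Among 16 coregulators of these receptors, all tested, *Ncoa1*, a coactivator, was the only gene called. It went from 2.71 ± 0.296 to 6.69 ± 0.243 and 8.76 ± 0.0814 FPKM (log2 fold change from E10.5 to E16.5 1.84, adjusted p = 1.08e-07). For both lists, the shares of all genes called were 21.6% from E10.5 to E14.5, 34.8% from E10.5 to E16.5 and 11.7% from E14.5 to E16.5.

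Genes known to respond to RA were called in both directions. Of 18 listed, 14 were tested, with 5 called higher and 2 lower from E10.5 to E14.5, 5 higher and 4 lower from E10.5 to E16.5, and 3 lower from E14.5 to E16.5. *Dkk2*, a secreted Wnt antagonist, went from 17.0 ± 2.55 to 274 ± 31.2 and 300.8 ± 32.5 FPKM. The orphan receptor genes *Nr2f1* and *Nr2f2* fell from 77.7 ± 8.50 and 32.9 ± 5.74 FPKM at E10.5 to 7.78 ± 0.401 and 14.2 ± 0.883 at E16.5, with log2 fold changes of -3.17 and -1.06. Of 7 PPARD targets, all tested, 2 were called higher and 1 lower from E10.5 to E14.5, 1 higher and 2 lower from E10.5 to E16.5, and 1 lower from E14.5 to E16.5. Beside the RA-responsive genes and the PPARD targets, the shares of all genes called were 21.6%, 34.8% and 11.7% in these comparisons. Among the PPARD targets *Cpt1a*, for fatty acid uptake into mitochondria, was higher at E14.5 than at E10.5 (log2 fold change 1.11). *Plin2*, a lipid droplet coat gene, was lower at E16.5 than at E10.5 (log2 fold change -1.04).

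The genes whose pattern was most like each changing member were found by Pearson correlation of log2(FPKM + 1) over the 9 samples among 10942 genes with a stage mean of at least 5 FPKM. These values describe shared stage differences, which most of the genes searched have, and carry no p. *Crabp1* was most like *Frmd6* (0.968), *Hpgd* (0.952) and *Rhoc* (0.932). For *Crabp2* they were *Lix1* (0.992), *Cmah* (0.990) and *Fdft1* (0.989), and for *Fabp5* they were *Tstd3* (0.989), *Sfrp1* (0.950) and *Fkbp5* (0.943). *Rarb* followed *Fanci* and *Aurka* closely, both at 0.998, and *Rbp2* followed *Rtl3* (0.965), *Zbtb16* (0.965) and *Glul* (0.964).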

How the data were processed

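RNA-Seq covered 9 pooled samples, 3 at each of E10.5 (pNC), E14.5 and E16.5 (cornea), and groups and replicate numbers came from the labels. Per the labels and the study's methods, the authors made poly(A)-selected Illumina libraries, mapped reads with Bowtie2 and HISAT to GRCm38 and quantified genes with RSEM, with versions not given in the sources used here. The deposited expected counts are RSEM estimates that are not normalized. The deposited FPKM values were scaled by the authors for transcript length and sample total. The deposited length column holds the transcript length that RSEM weighted over isoforms, so a shift between isoforms can move the FPKM of a gene with several transcripts. Genes with no estimate are not listed and were taken as 0. Symbols, coordinates and promoter windows came from RefSeq (GRCm38.p6), and 19312 of 19369 identifiers had a symbol.

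Expected counts were rounded to whole numbers. In R 4.3.3, edgeR 4.0.16 was run with filterByExpr by stage, TMM scaling and a quasi-likelihood fit of stage to all 9 samples, with Benjamini-Hochberg adjustment over 14771 genes. The fit was tested on simulated data for E14.5 against E10.5 over 14532 genes. There 63.6% of 99 genes changed 2-fold and 95% of 100 genes changed 4-fold had an edgeR adjusted p under 0.05. No fold minimum was applied in that test, and 6 of 14333 unchanged genes also passed. The simulated data gave each gene the same spread at every stage. They therefore do not show how the fit behaves with the larger spread of E14.5 in the real data. Library totals of 8745161 to 9069023 counts leave the spread between samples as the main error, and p-values measure that spread between the pools. The common dispersion, edgeR's estimate of this spread beyond counting error, was 0.0113 within E10.5, 0.0395 within E14.5 and 0.00606 within E16.5. The main fit shares its estimate of spread over all stages, so its p-values for E16.5 against E10.5 also carry the spread of E14.5. Alternatives were RLE size factors, library totals, DESeq2 1.42.0, limma 3.58.1 on log2(FPKM + 1) and log2(FPKM + 0.1), the study's NOISeq criterion recomputed from FPKM (probability of at least 0.8 and at least 2-fold), no filter, no fold minimum, only the stages compared, a replicate block, and leaving out each sample. Motifs were searched as plain letters in Python 3.11.15.

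The members, gene lists, tests and alternatives were chosen with earlier results of these data known. All 9 members were named in every comparison. From each other list, at most 3 genes per direction were named, those with the largest absolute log2 fold change among called genes with a stage mean of at least 5 FPKM. *Fabp3*, *Ppard* and *Rxrg* were named outside this rule, for their place beside members, after their values were seen. Beside the marker sums, *Krt13* and *Ivl* were named for being at 0. Some genes that these rules would name are not reported here.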

Additional observations from a re-analysis of the deposited data

How the results depend on the processing

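For E14.5 against E10.5, E16.5 against E10.5 and E16.5 against E14.5, 5, 3 and 4 of the 9 members were called. These counts include *Rbp2*, which passed the filter only through E16.5, and over the other 8 they were 4, 2 and 3. The shares of all genes called were 21.6%, 34.8% and 11.7%. With *Rbp2* included, the counts stayed within 1.5 times under the alternatives run except that of E16.5 against E10.5. That count rose from 3 to 5 with no fold minimum, where 69.8% of all genes passed. With only the stages compared the count of E14.5 against E10.5 was 4, as *Rbp2* was filtered out. Leaving out each sample gave 5 members for E14.5 against E10.5, 3 for E16.5 against E10.5 and 3 to 4 for E16.5 against E14.5. Of the member values, 391 kept direction and side of the threshold, 6 crossed it upward (*Rarg* and *Rxra* with no fold minimum), 3 crossed it downward, and 31 changed sign, all of them uncalled values near 0. Of the mean levels and shares, 17 moved by more than 1 SD, 6 of them E16.5 means divided by TMM factors and 11 of them shares computed from counts. For *Fabp5* from E10.5 to E16.5 the log2 fold change was -0.022 with library totals, -0.043 with limma at either pseudocount and -0.022 in NOISeq, and it ran from -0.058 to 0.26 when samples were left out. For *Crabp2* from E14.5 to E16.5 it was -0.16 with library totals, -0.15 with limma at either pseudocount and -0.16 in NOISeq, and ran from -0.054 to 0.12 when samples were left out. For *Rxrb* from E14.5 to E16.5 it was -0.16 with library totals, -0.13 and -0.14 with limma and -0.14 in NOISeq, and ran from -0.032 to 0.079 when samples were left out, whereas the other *Rxrb* comparisons ran from -0.11 to 0.014 (E14.5 against E10.5) and from -0.10 to 0.018 (E16.5 against E10.5). For *Rara* from E14.5 to E16.5 it was 0.0062 with RLE and 0.0063 with DESeq2, and ran from -0.10 to 0.14 when samples were left out. With library totals the median log2 fold change of all genes was itself -0.15 from E10.5 to E16.5 and -0.19 from E14.5 to E16.5, and with limma on log2(FPKM + 1) it was -0.13 and -0.15. The cause of the sign changes was not tested. Same-numbered samples did not deviate together (mean correlation of deviations -0.0354 over 9 pairs, -0.330 to 0.302), so the numbers were not taken as pairing. A replicate block in the model left 5, 3 and 4 members called, as without it, and it ended or added no member's call. Depth limits only *Rbp2*, which had 1 to 42 counts in the samples that list it.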
